A study of Rattus norvegicus with 10 samples.

Results

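The integrin and adhesion ligand genes of splenic M2 macrophages from rats were examined in 10 libraries. The 10 genes were chosen by name and are *Itgam*, *Itgax*, *Itgal*, *Itgb2*, *Itga4*, *Itgb1*, *Itgb7*, *Itgav*, *Icam1* and *Vcam1*. Of these, 8 were among the 9003 genes of the deposited table, while *Itgax* and *Itgav* were not analysed here. All macrophages came from WKY /Ncrj rats. The control libraries (n = 2) came from rats in the physiological condition, and the GN libraries (n = 2) from rats with glomerulonephritis without ASC treatment. The nephritis model was induced in female rats with TF78, a mouse monoclonal antibody against the glomerular basement membrane. The EV+ and EV- libraries (n = 3 each) held macrophages of nephritic rats that had also been given human adipose-derived mesenchymal stem cells (ASCs). ASC membranes had been labeled with the dye DiD, and EV+ cells were DiD-positive while EV- cells were DiD-negative, so that EV- cells had also been in an ASC-treated rat. The study's methods give an age range for the female rats of the nephritis model as a whole. The day of collection and the age and number of rats behind each library were not given in the sources used here. The cells had been isolated with an antibody to CD11b/c before sorting. CD11b and CD11c are the products of *Itgam* and *Itgax*, so the cells had been selected for these proteins.

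Integrins are receptors of the cell surface that are built from an alpha and a beta subunit and bind matrix proteins or ligands on other cells. In leukocytes the beta2 subunit (*Itgb2*, CD18) pairs with alphaL (*Itgal*, CD11a) to form LFA-1 and with alphaM (*Itgam*, CD11b) to form Mac-1, which is also a complement receptor. Both bind ICAM-1 (*Icam1*). The alpha4 subunit (*Itga4*) pairs with beta1 (*Itgb1*) to form VLA-4, which binds VCAM-1 (*Vcam1*), or with beta7 (*Itgb7*). In the spleen, *Vcam1* is known as a gene of red pulp macrophages and stromal cells.

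Values are given in TMM-normalized CPM, read counts scaled to the size of the library, as the authors deposited them, and the libraries held between 19270515 and 26617093 reads on the genes of the table. Differences are on the scale of log2(CPM + 1) and were tested with limma in a single fit of the 4 groups, with calls at a Benjamini-Hochberg FDR under 0.1 over all 9003 genes. The labelled cell type was checked against 14 macrophage markers, of which 10 were analysed. *Csf1r* (5800 to 8155 CPM), *Cd68* (1163 to 1466 CPM) and *Adgre1* (1025 to 1491 CPM) were present in all libraries. *Cd163* and *Mrc1*, which commonly define M2 macrophages, lay between 0 and 1.81 CPM and were at 0 in 3 and 2 libraries, respectively. The monocyte markers *Spn* (4838 to 5686 CPM), *Nr4a1* (2003 to 3609 CPM) and *Cx3cr1* (374 to 477 CPM) were present in all libraries too. The 10 analysed of 12 NK and T cell markers summed to between 16.8 and 37.9 CPM in the control, GN and EV+ libraries and to between 48.6 and 655 CPM in EV-, with the highest sum in EV- replicate 1. EV+ replicate 2 stood apart in another way, since it held the highest value of 6 of the 8 adhesion genes. It also had the lowest mean log2(CPM + 1) of 79 ribosomal protein genes, 6.29 against 6.50 to 7.02 in the other libraries. The part of these differences in the results was not tested. In bulk libraries, fewer cells that use a gene and less RNA per cell cannot be told apart.

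Among the 4 groups, 3 of the 8 genes differed by limma's test, and 2.57% of all genes did so. They were *Itgam* (adjusted p = 0.0130), *Icam1* (adjusted p = 0.0465) and *Vcam1* (adjusted p = 0.0234), an alpha subunit and both ligands. *Itgb7* (adjusted p = 0.260), *Itga4*, *Itgal*, *Itgb1* and *Itgb2* did not pass. By DESeq2 *Itgb7* also passed (adjusted p = 0.0867), and so did 6.03% of all genes. The reference sequences before the starts of these 3 genes are shown because they were the ones that passed. They are taken from RefSeq on the build GRCr8 and are not part of the measurement. Each is the stretch of 250 bases upstream of the annotated start, 5′ to 3′ on the strand of the gene, and capitals mark the matches of 6 short motifs on either strand. GGAAATTCC is a motif of NF-κB, and TTCNNNGAA one of the STAT factors. The motif of PU.1 and other ETS factors was taken as GAGGAA. AP-1 was represented by TGANTCA. Sp1 was represented by GGGCGG, and the TATA box by TATAAA.
Itgam promoter, chr1:192089342-192089591, plus strand: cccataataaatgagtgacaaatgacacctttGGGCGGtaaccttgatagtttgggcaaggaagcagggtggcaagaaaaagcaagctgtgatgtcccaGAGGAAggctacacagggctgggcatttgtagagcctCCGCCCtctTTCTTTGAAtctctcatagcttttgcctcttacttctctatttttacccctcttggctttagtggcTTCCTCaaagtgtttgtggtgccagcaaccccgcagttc
Icam1 promoter, chr8:27829595-27829844, plus strand: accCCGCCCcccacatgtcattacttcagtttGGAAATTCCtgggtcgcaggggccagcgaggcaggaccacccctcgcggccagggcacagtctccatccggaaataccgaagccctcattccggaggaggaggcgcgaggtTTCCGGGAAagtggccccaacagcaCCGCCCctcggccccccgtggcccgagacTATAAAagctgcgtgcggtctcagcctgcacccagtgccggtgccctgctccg
Vcam1 promoter, chr2:206742784-206743033, minus strand: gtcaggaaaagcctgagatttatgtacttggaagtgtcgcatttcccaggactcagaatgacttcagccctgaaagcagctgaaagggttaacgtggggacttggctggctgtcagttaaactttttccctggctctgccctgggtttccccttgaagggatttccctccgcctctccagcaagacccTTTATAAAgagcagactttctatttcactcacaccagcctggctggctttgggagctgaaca
The *Itgam* stretch held GAGGAA at bases 151 to 146 and, on the other strand, at bases 39 to 34 before the start. GAGGAA was present in 23.3% of the 33469 stretches of this length. It also held TTCNNNGAA at bases 105 to 97 and GGGCGG once on each strand. The *Icam1* stretch held GGAAATTCC at bases 218 to 210 before the start, a motif found in 0.287% of all stretches. It also held TTCNNNGAA at bases 107 to 99 (7.67% of all stretches), TATAAA at bases 53 to 48 (12.9%) and GGGCGG at 2 positions (30.5%). Of the motifs in these exact forms, the *Vcam1* stretch held only overlapping matches of TATAAA on both strands, from base 62 to base 55. Other forms of the sites of these factors were not searched. A missing match therefore does not mean that a site is missing, for NF-κB in *Vcam1* or elsewhere. Among the other members, 5 had an entry. GGAAATTCC was not found in these 5. Such matches describe the sequence and are no measure of binding.

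*Itgam* was higher in nephritis in all 3 nephritic groups. It had 418 and 388 CPM in control replicates 1 and 2, and 632 and 568 CPM in the GN replicates. Values in EV+ replicates 1, 2 and 3 were 598, 641 and 560.2 CPM, and those in the EV- replicates were 580.4, 530.1 and 478 CPM. Every nephritic library lay above both control libraries. *Itgam* rose from 403 ± 21.3 CPM (SD, n = 2) in control to 599.7 ± 45.3 CPM (n = 2) in GN, a log2 difference of 0.57 (SE 0.0998, limma, adjusted p = 0.0126). It was the only member that passed in this comparison, in which 1.75% of all genes passed and 0.933% passed as higher. Without control replicate 2 or without GN replicate 1 the adjusted p was 0.116 or 0.165, with log2 differences of 0.52 and 0.50. In EV+ macrophages the mean was 599.8 ± 40.3 CPM (n = 3), 0.57 above control (SE 0.0911, limma, adjusted p = 0.00323) in a comparison in which 3.63% of genes passed, and it also passed without any 1 library. In EV- macrophages it was 529 ± 51.2 CPM (n = 3), 0.39 above control (SE 0.0911, limma, adjusted p = 0.0488), where 2.84% of genes passed. Of all genes, 1.82% passed as higher and 1.81% as lower in EV+, and 1.29% as higher and 1.56% as lower in EV-. The EV- rise did not pass without control replicate 1, control replicate 2 or EV- replicate 1 (log2 differences of 0.44, 0.34 and 0.32, adjusted p = 0.142, 0.361 and 0.146). These 3 comparisons share the control libraries. By limma without its intensity trend the adjusted p was 0.132 for GN and 0.196 for EV-. The sums of 2 myeloid marker lists were higher in nephritis, like *Itgam*, and that of the monocyte list was not. The 6 analysed of 8 neutrophil markers summed to 549.8 to 555.5 CPM in control, 610.1 to 689.8 CPM in GN, 699 to 719 CPM in EV+ and 655 to 744 CPM in EV-. Most of this was *Csf3r*, while *S100a8* was at most 3.39 CPM in any library. The 10 macrophage markers summed to between 8442 and 8919 CPM in control, 9683 and 9727 CPM in GN, 9954 and 11019 CPM in EV+ and 9563 and 10218 CPM in EV-. The 5 analysed of 8 monocyte markers summed to 10836 to 11076 CPM in control, 10169.8 to 10498 CPM in GN, 9723 to 10660.1 CPM in EV+ and 9388 to 10684 CPM in EV-. Members of the lists differed in direction, since the log2 difference between GN and control was 0.24 for *Csf3r*, 0.25 for *Adgre1* and 0.21 for *Csf1r* but -0.11 for *Cd68*, -0.24 for *Hmox1*, -0.18 for *S100a8* and -0.26 for *S100a9*, none of which passed by limma. Of the monocyte list, *Cd14* passed as higher in GN than in control (log2 difference 0.65, limma, adjusted p = 0.0998). *Spn*, *Cx3cr1*, *Nr4a1* and *S100a4* of that list did not pass (log2 differences of -0.01, -0.02, -0.19 and -0.19). The part of these cells in the *Itgam* result was not tested.

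**Figure D1:**
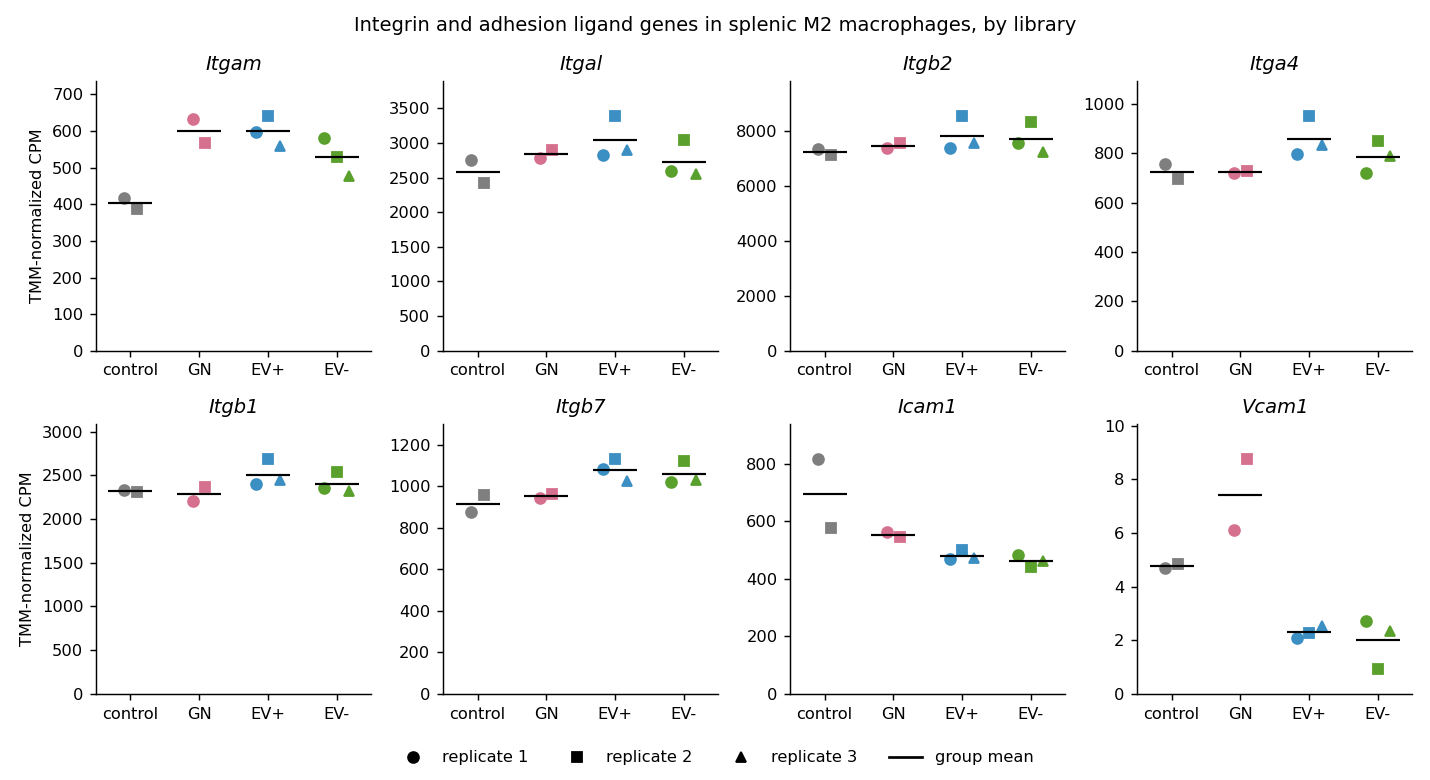
TMM-normalized CPM of the 8 genes (vertical axes, each from 0) in the control (n = 2), GN (n = 2), EV+ (n = 3) and EV- (n = 3) libraries. Points are libraries, their shape gives the replicate number and lines are group means; *Itgam* lies above both control libraries in every nephritic library, and *Vcam1* lies below both control libraries in every EV+ and EV- library.

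*Itgb2* and *Itgal*, the other beta2 integrin genes, did not pass between GN and control. *Itgb2* had 7356 and 7132 CPM in control, 7387 and 7552 CPM in GN, 7370.3, 8546 and 7582 CPM in EV+ and 7585, 8317 and 7252 CPM in EV- replicates. Both GN values lay just above the control values, and the log2 difference was 0.04 (SE 0.0930, limma, adjusted p = 0.922). *Itgal* had 2747 and 2419.9 CPM in control, 2777 and 2902 CPM in GN, 2826, 3385 and 2895 CPM in EV+ and 2598, 3036 and 2546 CPM in EV- replicates. Again both GN values lay above the control values, with a log2 difference of 0.14 (SE 0.108, limma, adjusted p = 0.728). For both genes the highest value was that of EV+ replicate 2, followed by EV- replicate 2. Of the 8 members, 4 were higher and 1 was lower in both GN libraries than in both control libraries. Over all genes these shares were 21.9% and 22%. Against control, 6 members were higher and 2 lower in all EV+ libraries, and 14.9% and 15.6% of all genes were. In EV- libraries 2 members, *Itgam* and *Itgb7*, were higher and 2, *Icam1* and *Vcam1*, were lower than in both control libraries, with 15% and 14.1% of all genes. Such counts are not of independent genes. Over the 10 libraries *Itgal*, *Itgb2*, *Itga4* and *Itgb1* correlated with each other with a Pearson r of 0.80 to 0.90.

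Within a library, reads of *Itgam* were compared with those of its partner. The ratio of *Itgam* to *Itgb2* reads was 0.0543 and 0.0568 in control, between 0.0752 and 0.0855 in GN, between 0.0739 and 0.0812 in EV+ and between 0.0637 and 0.0765 in EV- libraries. All nephritic libraries thus exceeded both control libraries in this ratio. The ratio of *Itgam* to *Itgal* reads was between 0.152 and 0.160 in control and between 0.175 and 0.227 in the nephritic libraries. The ratio of *Itgal* to *Itgb2* was between 0.382 and 0.396 in EV+ and between 0.342 and 0.365 in EV- libraries, which did not overlap. GN lay between 0.376 and 0.384 and control between 0.339 and 0.374. All other ratios taken, also those among the alpha4 integrin genes, overlapped between EV+ and EV-. How often ratios of other gene pairs separate these groups was not computed. As gene lengths were not corrected for, these ratios, given without a test, describe changes between libraries and not the relative amounts of the subunits.

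**Figure D2:**
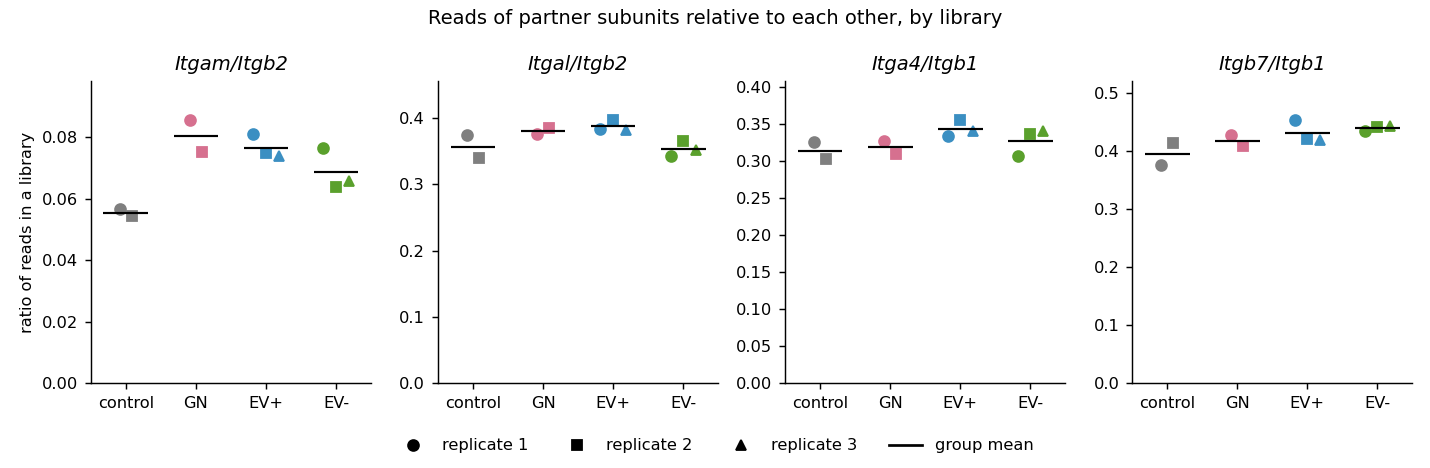
Ratio of reads between partner subunit genes in each library (vertical axes, each from 0, no unit), for the 4 groups. Points are libraries and lines are group means; the ratio of *Itgam* to *Itgb2* lies between 0.0543 and 0.0568 in control and at 0.0637 or above in all nephritic libraries.

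*Itga4*, *Itgb1* and *Itgb7*, the genes of the alpha4 integrins, did not pass between control and GN (log2 differences of -8.6e-05, -0.02 and 0.06, limma, adjusted p = 1, 0.961 and 0.865), and their means were higher in the EV+ and EV- libraries than in GN. *Itgb7* had 875 and 956 CPM in control, 943 and 965 CPM in GN, 1084, 1129 and 1024 CPM in EV+ and 1023, 1119 and 1029.7 CPM in EV- replicates. Every EV+ and EV- library lay above every control and GN library, but the log2 difference of 0.16 between the 6 EV+ and EV- libraries and GN did not pass (SE 0.0655, limma, adjusted p = 0.532). Against GN alone, the EV+ and EV- libraries lay higher without overlap for 5.18% of all genes. The share that also lay above control was not computed. Taken alone, EV+ lay above GN without overlap for *Itga4*, *Itgb1* and *Itgb7* and below it for *Icam1* and *Vcam1*, as 11.2% and 11.8% of all genes did. For EV- these were *Itgb7* above (12.6% of all genes) and *Icam1* and *Vcam1* below (12.8%). Against control, the log2 difference of *Itgb7* was 0.24 in EV+ (SE 0.0732, limma, adjusted p = 0.129). With a block for the replicate this difference was 0.26 and passed (limma, adjusted p = 0.0610). By DESeq2 it was 0.23 and passed too (adjusted p = 0.0540). Of all genes, 4.21% passed with the block and 6% by DESeq2, against 3.63% in the main fit. The difference of *Itgb7* did not pass by edgeR's quasi-likelihood or likelihood-ratio test (adjusted p = 0.135 and 0.138). Nor did it pass by limma in a fit of only these groups or without the intensity trend (adjusted p = 0.304 and 0.306). In EV- the fit without a block gave a log2 difference of 0.21 from control (SE 0.0732, limma, adjusted p = 0.220).

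*Itga4* had 756 and 697 CPM in control, 722 and 730.2 CPM in GN, 797, 951 and 832 CPM in EV+ and 720.02, 852 and 789 CPM in EV- replicates. The EV+ values lay above all control and GN values, whereas EV- replicate 1 lay below both GN libraries. Its log2 difference between EV+ and GN was 0.24 (SE 0.0891, limma, adjusted p = 0.626). *Itgb1* had 2327 and 2308 CPM in control, 2204 and 2364 CPM in GN, 2395, 2682 and 2443 CPM in EV+ and 2349, 2535 and 2322 CPM in EV- replicates. Both GN values lay below all EV+ values, but the log2 difference of 0.13 did not pass (SE 0.0743, limma, adjusted p = 0.801). For both genes EV+ replicate 2 was again the highest library.

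*Icam1*, the ligand of LFA-1 and Mac-1 and a gene known to be induced by NF-κB, was lower in ASC-treated nephritis than in control. It had 815 and 575 CPM in control, 561 and 544 CPM in GN, 469.9, 499 and 473 CPM in EV+ and 483, 439.8 and 462 CPM in EV- replicates. The order of the groups was control, GN, and then EV+ and EV-, whose values overlapped, but the control libraries differed from each other by more than control replicate 2 differed from GN. The log2 difference from control was -0.51 in EV+ (SE 0.111, limma, adjusted p = 0.0268) and -0.57 in EV- (SE 0.111, limma, adjusted p = 0.0181). Between GN and control it was -0.31 and did not pass (SE 0.121, limma, adjusted p = 0.358). Neither EV+ against GN (-0.20, SE 0.111, limma, adjusted p = 0.792) nor EV- against GN (-0.26, SE 0.111, limma, adjusted p = 0.576) passed. The control value depended on 1 library. Without control replicate 1 the log2 differences in GN, EV+ and EV- were -0.06, -0.26 and -0.32, and none of them passed (limma, adjusted p = 0.929, 0.236 and 0.171). Without control replicate 2, by contrast, GN against control passed at -0.56 (limma, adjusted p = 0.0258). The difference in EV+ also did not pass without EV+ replicate 3 (-0.50, adjusted p = 0.104) or in a fit of only the EV+ and control libraries (-0.51, adjusted p = 0.157). Without the intensity trend, which leaves the differences as they were, neither passed (adjusted p = 0.144 in EV+ and 0.129 in EV-).

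*Vcam1*, the ligand of VLA-4, was expressed at a low level, and was lower than in GN in EV- macrophages and in the EV+ and EV- libraries joined. It had 4.70 and 4.83 CPM in control, 6.11 and 8.74 CPM in GN, 2.07, 2.27 and 2.54 CPM in EV+ and 2.72, 0.917 and 2.33 CPM in EV- replicates. These values rested on between 18 and 232 reads per library, while 3 reads, taken as the smallest number for detection, corresponded to between 0.113 and 0.153 CPM. All EV+ and EV- values lay below all control values, and both GN values lay above them. In EV- the mean was 1.99 ± 0.950 CPM (SD, n = 3) against 7.43 ± 1.86 CPM (n = 2) in GN, a log2 difference of -1.53 (SE 0.278, limma, adjusted p = 0.0406). In this comparison 0.378% of all genes passed and 0.322% passed as lower. For EV+, with 2.30 ± 0.237 CPM (n = 3), the difference of -1.34 did not pass by limma (SE 0.278, adjusted p = 0.185) and no other member did, where 0.122% of all genes passed. Here 3 of the 8 members and 7.13% of all genes had an unadjusted p under 0.05, and *Vcam1* passed by edgeR's likelihood-ratio test (adjusted p = 0.00508, with 0.478% of all genes) and by DESeq2 (adjusted p = 0.0121, with 0.455%) but not by edgeR's quasi-likelihood test (adjusted p = 0.266). With the EV+ and EV- libraries joined, the difference from GN was -1.44 (SE 0.249, limma, adjusted p = 0.0257), in a comparison in which 0.422% of genes passed and 0.333% as lower. Groups that did not overlap in this direction were found for 5.61% of all genes. Because the level was near the pseudocount of 1, these differences understate the change in CPM.

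The result for *Vcam1* rested on both GN libraries. Without GN replicate 1 or 2, the adjusted p of EV- against GN was 0.185 or 0.466 by limma, at log2 differences of -1.76 and -1.31. That of both EV groups together was 0.243 or 0.461, at -1.66 and -1.21. In a fit of only the EV- and GN libraries the difference was the same -1.53 and the adjusted p was 0.146, and without the intensity trend it was 0.155 for EV- and 0.108 for both EV groups. Without EV- replicate 2, which had the lowest value, EV+ against GN passed (limma, adjusted p = 0.0390) and so did EV+ against control (adjusted p = 0.0821). Between GN and control *Vcam1* did not pass (log2 difference 0.53, SE 0.305, limma, adjusted p = 0.610). Against control the differences were -0.81 in EV+ (SE 0.278, limma, adjusted p = 0.179) and -1.002 in EV- (SE 0.278, limma, adjusted p = 0.102). The latter passed without EV+ replicate 2 (adjusted p = 0.0981) or EV- replicate 1 (adjusted p = 0.0757), by edgeR's likelihood-ratio test (adjusted p = 0.0403) and by DESeq2 (adjusted p = 0.0631). Of all genes, 4.93% passed there by the likelihood-ratio test and 5.26% by DESeq2. Some macrophage markers were highest in GN, like *Vcam1*. The summed level of *Cd163*, *Mrc1*, *C1qa*, *C1qb*, *C1qc* and *Spic*, the 6 macrophage markers of low level, chosen after their values were seen, was 32.1 to 36.2 CPM in GN. It was 15.4 to 25.2 CPM in control, 19.4 to 23.8 CPM in EV+ and 9.34 to 22.0 CPM in EV- libraries. Of these 6 genes, *Mrc1* had a lower mean in GN than in control (log2 difference -0.23), as *Hmox1* (-0.24) and *Cd68* (-0.11) of the same list did, and the other 5 had higher means (log2 differences of 0.26 to 1.04). None of these genes passed by limma between GN and control. Their tests between the EV groups and GN, where *Vcam1* passed, are not given here. The sum of the 6 was lower in every EV+ and EV- library than in both GN libraries. The whole macrophage list did not have its highest sums in GN. The part of these cells in the *Vcam1* result was not tested. Of the 7 endothelial and stromal markers, 2 were analysed, and they summed to at most 9.81 CPM in any library.

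**Figure D3:**
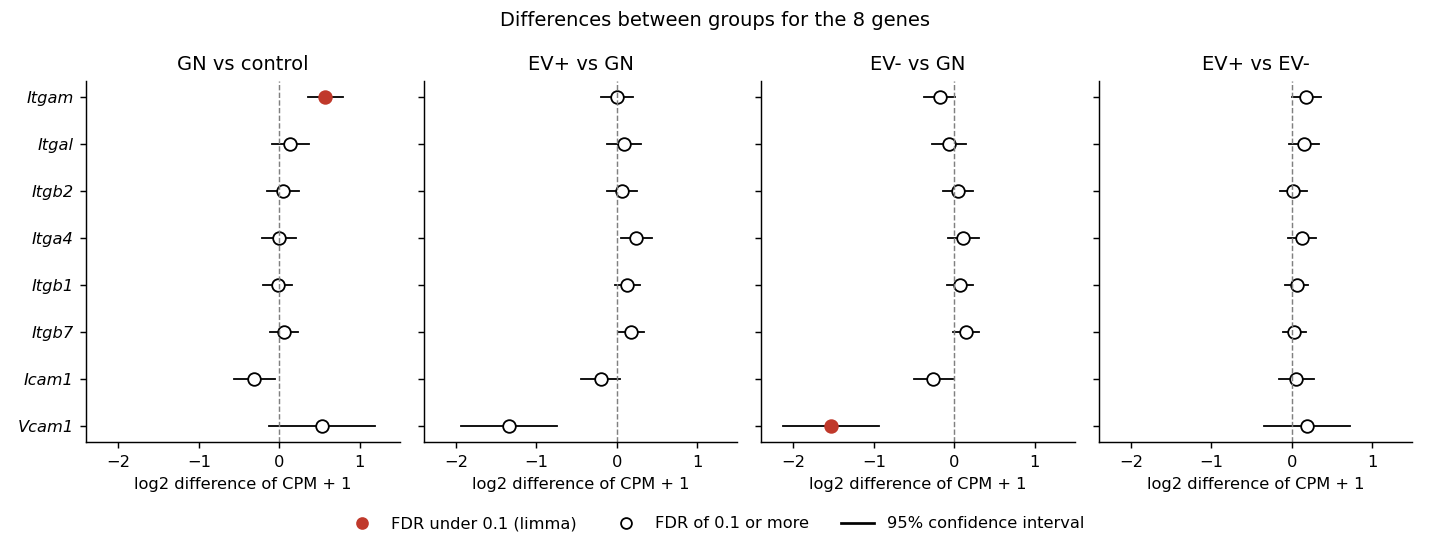
Differences of log2(CPM + 1) between groups for the 8 genes (horizontal axes), with 95% confidence intervals as lines; filled red points passed an FDR under 0.1 by limma and open points did not. In these 4 comparisons *Itgam* passed between GN and control and *Vcam1* between EV- and GN, and the intervals of *Vcam1* are the widest.

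The direct comparison of EV+ and EV- addressed whether DiD-positive macrophages differed from DiD-negative ones of treated rats. The study proposes that vesicles from ASCs may also have touched DiD-negative cells for a short time. None of the 8 members passed by limma, edgeR's tests or DESeq2, and 1 of them, *Itgam*, had an unadjusted p under 0.05, as 4.57% of all genes did. Over all genes, 0.0222% passed by limma. All 8 means on the log2 scale were higher in EV+, by between 0.02 (*Itgb2*) and 0.19 (*Vcam1*), and the median was 0.09 against -0.01 over all genes. As several members correlated with each other, these 8 signs are not independent. The groups overlapped for each member, while 4.25% of all genes were higher and 4.65% lower without overlap. The sign turned for *Itgb2* and *Itgb7* without EV+ replicate 2 (-0.04 and -0.0036), for *Itgb2* without EV- replicate 3 (-0.02) and for *Vcam1* without EV- replicate 2 (-0.10). Without both of the libraries numbered 2 it also turned for *Icam1* (-0.0033). An exact permutation test over the 20 splits of these libraries gave two-sided p-values between 0.2 and 0.9, where the smallest possible was 0.1, so that it could not have passed at 0.05 and says nothing about the absence of a difference. EV+ and EV- libraries that share a number deviated together, so the differences within numbers were also taken. *Itgal* was higher in EV+ in all 3, by 0.12, 0.16 and 0.19, and so was *Itgam*, by 0.04, 0.27 and 0.23. *Itga4* (0.15, 0.16 and 0.08) and *Itgb1* (0.03, 0.08 and 0.07) were likewise higher in all 3, whereas the other 4 members were higher in 2 of 3. Over all genes, 13.7% were higher and 14.3% lower in EV+ at all 3 numbers. In a fit of only these 6 libraries with a block for the replicate, a choice made after the data were seen, *Itgal* differed by 0.15 (SE 0.0372, limma, adjusted p = 0.199). In that fit *Itgam* differed by 0.18 (SE 0.0506, limma, adjusted p = 0.320) and *Itga4* by 0.13 (SE 0.0410, limma, adjusted p = 0.432), and no member passed, while 0.544% of all genes did. The 95% confidence intervals in that fit were 0.07 to 0.24 for *Itgal*, 0.07 to 0.29 for *Itgam* and -0.06 to 0.10 for *Itgb2*. *Itgal* is also expressed by NK and T cells, whose markers summed to 48.6 to 655 CPM in EV- and 19.5 to 37.9 CPM in EV+ libraries. The part of these cells in the values of *Itgal* and the other members was not tested.

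**Figure D4:**
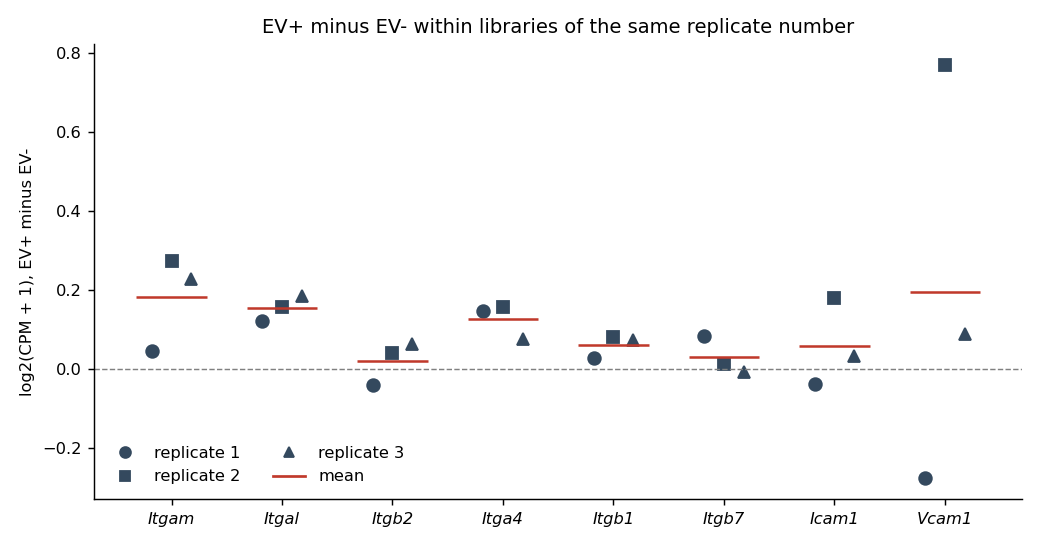
Difference of log2(CPM + 1) between the EV+ and the EV- library of the same replicate number (vertical axis, EV+ minus EV-) for the 8 genes. Points are the 3 replicate numbers and red lines their means; *Itgal*, *Itgam*, *Itga4* and *Itgb1* lie above 0 at all 3 numbers, and *Vcam1* spreads from -0.28 to 0.77.

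The wider integrin pathway was followed in 4 lists of other genes. Of 18 other integrin subunit genes, 7 were analysed. None of them passed by limma or edgeR's quasi-likelihood test in GN against control, EV+ against GN, EV- against GN or EV+ against EV-, and at an unadjusted p under 0.05 the counts by limma were 0, 1, 1 and 2. Of all genes, 10.4%, 7.13%, 7.85% and 4.57% had such a p in these comparisons, shares that also stand behind the counts of the other lists. By edgeR's likelihood-ratio test *Itga1*, which was at 0 CPM in control and at a mean of 0.326 CPM in GN, passed between GN and control, and none passed by DESeq2. In that comparison 3.24% of all genes passed by the likelihood-ratio test. *Itgb3*, the beta3 subunit, had group means of 243 to 291 CPM. *Itgb5*, the beta5 subunit, fell from 20.1 ± 2.52 CPM in control to 9.66 ± 2.10 CPM in EV- (log2 difference -0.997, SE 0.229, limma, adjusted p = 0.0451), and it was named after its value was seen. The same fall did not pass without the intensity trend (adjusted p = 0.129) or without control replicate 1 or 2 or EV- replicate 1 (adjusted p = 0.143, 0.345 and 0.135). *Itgad*, which encodes the alphaD partner of beta2, had 44.9 CPM in control and 54.1 CPM in GN (limma, adjusted p = 0.670).

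Of 20 other ligand and leukocyte adhesion genes, 10 were analysed, and by limma, both edgeR tests and DESeq2 none passed in these 4 comparisons. At an unadjusted p under 0.05 there were 0, 2, 2 and 0 of them by limma. *Spn*, which encodes CD43, had group means of 5155 to 5293 CPM, and *Cd44*, a hyaluronan receptor, 571 to 599 CPM. Of 20 genes of integrin activation from inside the cell, 14 were analysed. None passed by limma or either edgeR test, and 1, 2, 1 and 0 of them had an unadjusted p under 0.05 by limma. *Fyb*, which encodes an adaptor of integrin activation, passed by DESeq2 as lower in GN than in control (325 against 385 CPM, limma, adjusted p = 0.169). In that comparison 3.27% of all genes passed by DESeq2. *Tln1*, which encodes talin, had 1137, 1046, 1394 and 1236 CPM in control, GN, EV+ and EV- (limma, adjusted p = 0.525 among the groups). *Fermt3*, which encodes kindlin-3, lay between 859 and 905 CPM.

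Of 22 genes of integrin signaling, 19 were analysed, and 2 passed as higher in GN than in control by limma, both edgeR tests and DESeq2. Of all genes, 0.933% passed as higher by limma. *Lims1*, which encodes PINCH, a partner of integrin-linked kinase, rose from 51.9 ± 1.60 to 90.4 ± 2.59 CPM (log2 difference 0.79, SE 0.105, limma, adjusted p = 0.00287). *Vcl*, which encodes vinculin, a linker of integrins to actin, rose from 14.1 ± 3.35 to 28.2 ± 0.743 CPM (log2 difference 0.97, SE 0.211, limma, adjusted p = 0.0452). *Lims1* also passed when any single library was left out, with adjusted p of up to 0.0530. *Vcl* did not pass without control replicate 2, GN replicate 1 or GN replicate 2 (adjusted p = 0.323, 0.226 and 0.325), nor without the intensity trend (adjusted p = 0.163). Both were also above control in EV+ (79.9 and 26.1 CPM, limma, adjusted p = 0.00292 and 0.0327) and in EV- (74.6 and 27.6 CPM, limma, adjusted p = 0.0147 and 0.0305). In EV+ *Vcl* did not pass without control replicate 2 or EV+ replicate 3 (adjusted p = 0.351 and 0.140), nor without the intensity trend (adjusted p = 0.114). In EV- it did not pass without control replicate 2 or EV- replicate 1 (adjusted p = 0.327 and 0.102), and *Lims1* did not without control replicate 2 (adjusted p = 0.154). Without the intensity trend the adjusted p of *Vcl* in EV- was 0.119. In the comparisons with control, edgeR's likelihood-ratio test and DESeq2 also called *Parvb* of this list in EV+ and EV-, *Pecam1* in EV+ and *Itga1* in EV+ and EV-. Of all genes, 5.73% passed by the likelihood-ratio test and 6% by DESeq2 in EV+ against control. In EV- against control these shares were 4.93% and 5.26%. Over the list, the median log2 difference between GN and control was -0.04, against -0.00014 over all genes. In the 3 other comparisons none passed by any of these tools, and 2, 2 and 0 of the genes had an unadjusted p under 0.05 by limma. The kinase genes *Fgr* (2046 to 2187 CPM) and *Lyn* (1199 to 1361 CPM), with these ranges of group means, did not pass in any of the 4 comparisons.

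The genes whose profile over the 10 libraries was most like that of the 3 members that passed were sought among 7192 genes with a mean of at least 5 CPM. These correlations describe 10 libraries that share the groups and the scaling, and they carry no test. *Itgam* was closest to *Tmem173*, which encodes the DNA sensor adaptor STING, with a Pearson r of 0.956 and a Spearman rho of 0.806. *Vopp1* (r = 0.946) and *Sptbn1* (r = 0.927), a spectrin gene, came next. *Tmem173* had 2.78 CPM in control, 6.41 in GN, 7.55 in EV+ and 5.50 in EV-. *Icam1* was closest to *Dazap1* (r = 0.950), *Plk2* (r = 0.945) and *Tob1* (r = 0.941). *Plk2*, which encodes a stress-responsive kinase, had 58.5 CPM in control, 36.4 in GN, 26.7 in EV+ and 20.1 in EV-. *Vcam1* was closest to *Stx8* (r = 0.901), *Plek* (r = 0.880) and *Cd74* (r = 0.880). *Cd74*, the invariant chain of MHC class II, had 895 CPM in control, 1159 in GN, 787 in EV+ and 628 in EV-, and the correlation of *Vcam1* with it had a Spearman rho of 0.867.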

How the data were processed

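Splenic M2 macrophages were sequenced in 10 libraries of 4 groups, taken from the sample titles. The authors aligned paired-end reads to rn6 with STAR (2.5.3), counted them on RefSeq genes with HTSeq (0.6.0, intersection-strict), removed genes with a maximum CPM under 1 and applied TMM normalization in edgeR. The deposited table holds this normalized signal for 9003 genes. All values (100%) were whole reads within a tolerance of 0.05, and TMM values computed anew from these reads were within 4e-05 of the deposited ones. The library kit does not mark strand, so antisense reads could not be told apart, and how reads shared by related integrin genes were split was not given in the sources used here. Of the symbols, 18 had been turned into dates. The genes, lists and tests were chosen with earlier results of these data known.

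Differences were tested with limma (3.58.1) in R (4.3.3) on log2(CPM + 1) with an intensity trend and 6 residual degrees of freedom, with adjustment over all genes. Confidence intervals are at 95%. As alternatives, edgeR (4.0.16) and DESeq2 (1.42.0) were run on the recovered reads, besides a pseudocount of 0.1, a mean of at least 1 CPM, RLE size factors, no intensity trend, only the groups compared, the replicate block and each library left out. The procedure was also run on simulated data, the outcome of which is not given here and is no support for the results. Named genes were all members, genes of the lists with an FDR under 0.1 in 4 comparisons, and the 3 genes most like each member that passed among the groups. Others given as examples were chosen after their values were seen. Same-numbered EV+ and EV- libraries correlated, after subtraction of group means, with r of 0.203, 0.295 and 0.122 across genes, which are not independent. They were therefore also compared within numbers and with a replicate block, although the labels do not say what the number stands for. The single fit of the 4 groups behind the main results did not use this pairing. For control and GN the r was 0.0878. Replicates differed by a chi-square of 13.4 to 45.4 per degree of freedom, so none was a copy. Replicates are stated to be biological, but the rats behind each library were not given in the sources used here, so p-values measure the spread between these libraries. The detection floor covers counting error only. The other marker lists summed over all libraries to 9388 to 11076 CPM for monocytes, 45.1 to 111 CPM for B cells and 26.7 to 39.2 CPM for dendritic cells (5 analysed genes each). The single erythroid marker analysed, *Hbb*, had 1.00 to 1.44 CPM in control, 4.11 to 5.25 in GN, 2.68 to 3.49 in EV+ and 2.96 to 4.75 in EV-. It passed as higher in GN than in control (log2 difference 1.35, limma, adjusted p = 0.0239). The part of B cells and erythroid cells in the results was not tested. None of 5 platelet markers was analysed.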

Additional observations from a re-analysis of the deposited data

How the results depend on the processing

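Of the counts of members that passed, the one among the 4 groups was 3, and it was between 1 and 3 when 1 library was left out (1 without GN replicate 2), 1 without the intensity trend and 4 by DESeq2. Over all genes the share that passed was 2.57%, between 1.08% and 2.95% with a library left out, 1.03% without the trend and 6.03% by DESeq2. In GN against control the count was 1, and 0 to 1 with a library left out (0.378% to 2.38% of all genes). In EV+ against GN it was 0, with 0 to 1 on leaving out a library (0% to 0.2% of all genes), 1 by edgeR's likelihood-ratio test (0.478%), 1 by DESeq2 (0.455%) and 1 without both libraries numbered 2 (0.244%), an alternative added after seeing the data. In EV- against GN it was 1, with 0 to 1 on leaving out a library (0.0778% to 0.467%) and 0 in a fit of only these groups (0.333%). For both EV groups against GN it was 1, with 0 to 1 (0.0333% to 0.522%). Against control the count was 2 in EV+ (1 to 3 on leaving out a library, with 1.27% to 4.33% of all genes, and 1 in a fit of only these groups, with 1.72%) and 2 in EV- (0 to 3, with 1.06% to 4.31%). Without the intensity trend the counts were 0 in GN and in EV- against control, 0 in EV- and in both EV groups against GN, and 1 in EV+ against control. Calls over all genes fell there too, to 0.666%, 1.04%, 0.0666%, 0.0444% and 2.07%, respectively. Between EV+ and EV- the count was 0 throughout. The causes were not tested.

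On leaving out 1 library, differences near 0 changed sign, none of which had passed. In GN against control they ranged from -0.0588 to 0.0586 for *Itga4* (0.0084 without GN replicate 1), from -0.0725 to 0.0287 for *Itgb1* and from -0.0034 to 0.124 for *Itgb7*. *Itgam* in EV+ against GN ranged from -0.0770 to 0.0771 (-0.0485 without EV+ replicate 2 or both libraries numbered 2). *Itgb2* in EV- against GN ranged from -0.0101 to 0.0887. For both EV groups against GN, *Itgal* ranged from -0.0263 to 0.0460 (-0.0176 without GN replicate 1), and *Itgb2* reached 0.0772. *Itgal* in EV- against control ranged from -0.0156 to 0.167 (-0.0038 without EV- replicate 2). Between EV+ and EV-, *Itgb2* ranged from -0.0437 to 0.0757 (-0.0231 without EV- replicate 3), *Itgb7* from -0.0036 to 0.0715, *Icam1* from 0.0237 to 0.0911 and *Vcam1* from -0.0986 to 0.380. Without both libraries numbered 2, values were -0.0662 for *Itgal* and -0.0044 for *Itgb2* in both EV groups against GN, -0.0101 for *Itgb2* in EV- against GN, -0.0038 for *Itgal* in EV- against control, and -0.0033 for *Icam1* and -0.0949 for *Vcam1* between EV+ and EV-. Of 575 values of a gene in a comparison under settings that kept all libraries of the groups compared, 557 stayed on the same side of the threshold, 6 newly passed and 12 no longer passed, with no change of sign. With the replicate block, *Itgb7* in EV+ against control passed at 0.26 (limma, adjusted p = 0.0610), and no other call of a member in a comparison of groups changed. The level of *Vcam1*, with 18 to 232 reads per library, limits what can be said of it, and 2 libraries in control and GN limit every comparison with these groups.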
